A study of Mus musculus with 2 samples.

Results

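The 8 genes described here encode the Notch ligands Dll1, Dll4, Jag1 and Jag2 and the receptors Notch1, Notch2, Notch3 and Notch4 of the mouse. They were taken by gene symbol from the 31053 genes counted in each of 2 single-cell libraries, and all 8 had UMIs (unique molecular identifiers, which count captured RNA molecules) in both. One library came from C57BL/6 embryos at E11.5 and the other from C57BL/6 embryos at E10.5, the embryonic day after mating. At both stages the dissected tissue was the dorsal aorta, the main artery of the embryo, with the fetal liver, and it was dissociated with collagenase/dispase and then trypsin-EDTA. No genotype, sort or treatment beyond this was given, and the number of embryos behind a library was not stated. Each stage is 1 library, so no difference between stages has a replicate check. The intervals below cover counting error only.

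Notch signalling passes between touching cells. A Delta-like or Jagged ligand on the sending cell binds a Notch receptor on its neighbour, the receptor is cut by an ADAM protease and then by gamma-secretase, and the freed intracellular domain joins the DNA-binding protein Rbpj to switch on genes such as those of the Hes and Hey families. In the embryonic aorta the pathway is known for arterial identity, for smooth muscle recruitment and for the emergence of haematopoietic stem cells from the arterial wall.

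The files' symbols matched the gene annotation of GRCm38 at 8 protein-coding genes. Dll4 lies at chr2:119325784-119335962 on the plus strand, Jag1 at chr2:137081456-137116644 on the minus strand and Notch1 at chr2:26457903-26516663 on the minus strand. Chromosome 17 holds Dll1 at chr17:15367354-15376872 (minus), Notch3 at chr17:32120820-32166852 (minus) and Notch4 at chr17:34564268-34588503 (plus). Jag2 lies at chr12:112907819-112929776 (minus) and Notch2 at chr3:98013527-98150361 (plus). A gene on the opposite strand overlaps Dll1 (A930024N18Rik, with 9 UMIs at E11.5 and 15 at E10.5) and Notch3 (Gm17276, with 10 and 7 UMIs), few beside the 213 and 905 UMIs of Dll1 and the 3005 and 2738 of Notch3.

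Promoters are shown for the 3 members whose levels varied together across cell classes (Dll4, Jag2 and Notch4) and for the 2 members whose windows held a searched motif (Jag1 and Dll1). Each sequence is from RefSeq, build GRCm38.p6, and runs 5′ to 3′ on the gene's own strand from 250 bases before the transcription start to 50 bases after it. Capitals mark the motif matches.
Dll4, chr2:119325534-119325833 (+): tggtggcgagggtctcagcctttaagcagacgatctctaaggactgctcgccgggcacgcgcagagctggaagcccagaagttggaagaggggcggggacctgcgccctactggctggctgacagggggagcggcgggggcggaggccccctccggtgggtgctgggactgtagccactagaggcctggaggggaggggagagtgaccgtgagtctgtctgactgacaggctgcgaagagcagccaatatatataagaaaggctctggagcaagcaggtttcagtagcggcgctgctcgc
Jag2, chr12:112929446-112929745 (-): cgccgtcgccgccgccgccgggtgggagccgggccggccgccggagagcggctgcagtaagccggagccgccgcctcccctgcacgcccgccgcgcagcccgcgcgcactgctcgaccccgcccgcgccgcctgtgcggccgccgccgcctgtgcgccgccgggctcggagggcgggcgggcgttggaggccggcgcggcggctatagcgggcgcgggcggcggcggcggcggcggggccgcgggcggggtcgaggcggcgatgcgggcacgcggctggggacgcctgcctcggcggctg
Notch4, chr17:34564045-34564344 (+): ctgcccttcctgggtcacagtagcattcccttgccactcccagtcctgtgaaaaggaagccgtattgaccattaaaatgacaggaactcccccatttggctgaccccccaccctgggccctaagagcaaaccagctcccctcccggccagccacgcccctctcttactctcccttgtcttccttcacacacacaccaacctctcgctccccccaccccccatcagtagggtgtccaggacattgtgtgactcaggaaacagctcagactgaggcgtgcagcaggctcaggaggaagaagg
Jag1, chr2:137116471-137116770 (-): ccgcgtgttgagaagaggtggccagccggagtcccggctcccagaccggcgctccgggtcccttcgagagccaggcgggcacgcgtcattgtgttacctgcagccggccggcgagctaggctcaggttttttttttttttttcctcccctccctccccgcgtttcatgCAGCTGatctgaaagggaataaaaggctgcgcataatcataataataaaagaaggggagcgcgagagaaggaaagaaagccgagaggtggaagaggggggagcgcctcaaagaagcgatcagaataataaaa
Dll1, upstream start, chr17:15376883-15377182 (-): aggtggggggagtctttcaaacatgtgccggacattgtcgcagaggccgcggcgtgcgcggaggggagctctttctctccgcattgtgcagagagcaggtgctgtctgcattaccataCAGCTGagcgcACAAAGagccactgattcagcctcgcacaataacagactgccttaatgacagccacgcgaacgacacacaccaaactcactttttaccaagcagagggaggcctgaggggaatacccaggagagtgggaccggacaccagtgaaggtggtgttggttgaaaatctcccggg
Both strands of each window were searched for short motifs, with the share among 32851 RefSeq promoter windows of this length as background. The core bound by Rbpj, spelled TGGGAA, was held by 25.6% of all windows, and the ETS factor motif CCGGAAG by 8.86%. The SOX factor motif ACAAAG was held by 18.7%, the E-box CAGCTG by 16.3% and the TATA box TATAAA by 13.6%. No pair of matches overlapped. The Dll1 window held the E-box 132 bases and the SOX motif 121 bases before the start, and the Jag1 window held the E-box 82 bases before the start. The windows of Dll4, Jag2 and Notch4 held none of these letters. They also had little in common in base composition, with 63.7%, 86% and 58.3% G and C and 17, 63 and 5 CpG pairs, against medians of 52.7% and 7 over all windows.

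The libraries were of similar depth. Of 12289 barcodes at E11.5 and 10996 at E10.5, 9756 and 8705 were kept, each with 1000 UMIs or more, 500 genes or more and mitochondrial UMIs of 10% or less. Their median depth was 13332 UMIs at E11.5 and 15515 at E10.5, and 24 kept barcodes were shared by the libraries. Cells were clustered without the 8 members, 47 other genes of the pathway, haemoglobin genes and mitochondrial genes, and 23 of 40 clusters were named from marker genes. Unnamed clusters, mostly mesenchymal, held 63.6% of cells at E11.5 and 48.1% at E10.5. Levels are given as CPM, counts per 1e6 UMIs in the summed cells of a class and library, with haemoglobin and mitochondrial genes left out of the total. They are compared within a gene, since UMI levels of different genes are not on a common scale.

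Summed over all cells, Dll1 stood out, at 1.45 CPM (213 UMIs) at E11.5 and 6.50 CPM (905 UMIs) at E10.5, a log2 ratio of -2.16 (95% interval -2.38 to -1.95). It was the only member at least 2-fold lower at E11.5, with Dll4 near that limit (-0.98), and none was 2-fold higher. Over all 18084 genes with at least 20 UMIs, 4.51% were at least 2-fold lower and 16.1% at least 2-fold higher, with a median log2 ratio of 0.16. The other ligands were at 2.35 and 4.63 CPM (Dll4), 24.7 and 18.8 CPM (Jag1) and 1.76 and 2.15 CPM (Jag2) at E11.5 and E10.5. The receptors were at 20.3 and 31.8 CPM (Notch1), 38.4 and 61.6 CPM (Notch2), 20.5 and 19.7 CPM (Notch3) and 4.79 and 6.57 CPM (Notch4). In such totals fewer cells of an expressing type and less RNA per cell cannot be told apart, and the classes that hold the UMIs differed in size between the libraries.

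The UMIs of Dll4 lay in a small compartment. The 3 kinds of endothelial-like cell (arterial, venous or capillary, and sinusoidal) made up 2.05% of cells at E11.5 and 3.03% at E10.5, yet held 87.2% and 69.7% of Dll4 UMIs. They held 46.1% and 47.2% of Jag2 UMIs, 35.8% and 36.7% of Notch4 UMIs and 28.8% and 21.9% of Notch1 UMIs. A further 18.2% of Dll4 UMIs at E10.5 came from an unnamed vascular subcluster with mesenchymal leading genes, in which 96.3% of 81 cells had a doublet score among the highest 8% of their library. Dll4 was therefore concentrated in endothelium in both libraries. Jag2 and Notch4 were over-represented there for so few cells, but most of their UMIs lay outside the 3 kinds. Jag1 and Notch2 were spread over many classes.

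Across 46 sums of a class and library with at least 50 cells, Dll4 reached 20 CPM in 6, Jag2 in 2, Notch4 in 6 and Dll1 in 2. Jag1 did so in 15, Notch3 in 18, Notch1 in 20 and Notch2 in 35. Dll1 had no UMI in 14 of the sums and Dll4 none in 13, whereas Jag1 and Notch2 had UMIs in all 46. The plot of member levels by cell class shows these contrasts.

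**Figure D1:**
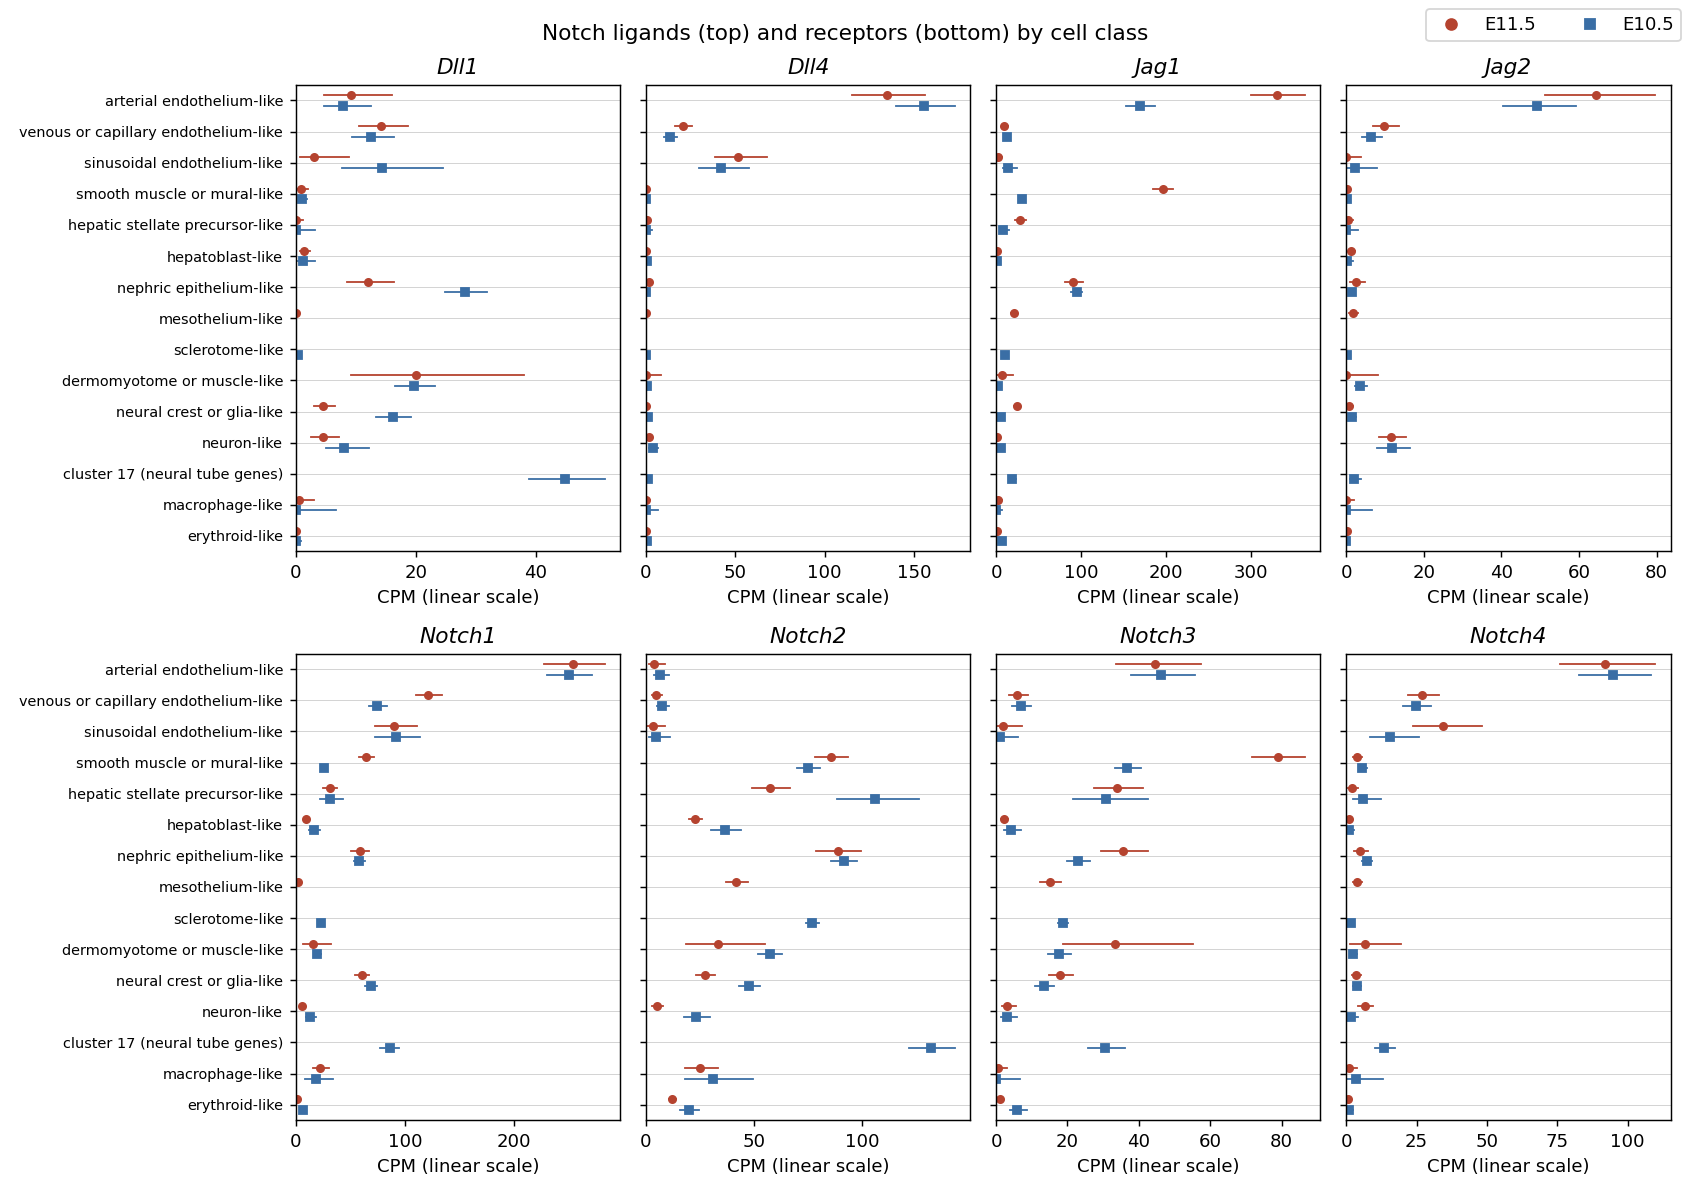
CPM of each member (x axis, linear, with 95% intervals for counting error) in 15 cell classes (y axis), red circles for E11.5 above blue squares for E10.5, for classes with at least 20 cells. Dll4, Jag2 and Notch4 peak in arterial endothelium-like cells at both stages, Jag1 has separate peaks in arterial, smooth muscle and nephric cells, and Dll1 is highest in cluster 17 (44.9 CPM, E10.5).

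Dll4 was highest in arterial cells, at 135 CPM at E11.5 and 156 CPM at E10.5, whose intervals overlapped. Among these sums of at least 50 cells, next came 3 unnamed vascular subclusters at E10.5 (54.6, 46.6 and 40.4 CPM, from 9, 117 and 7 UMIs) and venous or capillary cells at E11.5 (20.6 CPM). The smaller sinusoidal class had 51.6 CPM at E11.5 and 41.8 CPM at E10.5. Notch4, a receptor known mainly from endothelium, had the same leading class, with 91.8 CPM at E11.5 and 94.8 CPM at E10.5 in arterial cells and overlapping intervals. Its next levels among the same sums were 34.6 and 27.1 CPM in unnamed vascular subclusters (6 and 68 UMIs, E10.5) and 27.0 CPM in venous or capillary cells at E11.5, and sinusoidal cells had 34.4 and 15.4 CPM. Jag2 also led in arterial cells, at 64.3 CPM at E11.5 and 49.2 CPM at E10.5, and its next levels among the 46 sums were 13.5 CPM in the doublet-rich vascular subcluster at E10.5, 11.54 and 11.73 CPM in neuron-like cells, and 11.54 CPM, from 2 UMIs, in another vascular subcluster at E10.5.

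Notch1 was highest in arterial cells, at 254 CPM at E11.5 and 250 CPM at E10.5, and then in venous or capillary cells at E11.5 (121 CPM), whose interval met neither. The doublet-rich vascular subcluster (92.0 CPM) and an unnamed neural cluster (85.8 CPM), both at E10.5, followed among these sums, and sinusoidal cells had 90.1 and 91.4 CPM. Jag1 was highest in arterial cells at E11.5 (331 CPM), apart from all others. It was followed by smooth muscle or mural-like cells at E11.5 (196 CPM) and arterial cells at E10.5 (169 CPM), whose intervals met, and then by nephric cells (91.0 CPM at E11.5 and 94.8 CPM at E10.5). Dll1 was highest in the neural cluster (44.9 CPM), then in nephric cells at E10.5 (28.2 CPM) and in muscle-like and crest cells at E10.5 (19.7 and 16.1 CPM).

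Notch2 and Notch3 had most of their UMIs outside endothelium. Their highest levels, 191 and 380 CPM for Notch2 and 85.6 and 71.3 CPM for Notch3 at E11.5 and E10.5, were in cluster 31, a group of 79 and 121 shallow cells (median 1627 UMIs) that gave 29 and 80 Notch2 UMIs (log2 ratio -0.99, with 7.75% of genes there at least 2-fold higher and 8.32% lower). Among deeper classes Notch2 reached 132 CPM in the neural cluster and 106 CPM in hepatic stellate precursor-like cells at E10.5. Notch3, the receptor known from vascular smooth muscle, reached 78.9 CPM in mural cells at E11.5. Sclerotome-like cells, the vertebral precursors that made up 20.3% of cells at E10.5, held 32.9% of Notch2 UMIs and 25.2% of Notch3 UMIs there.

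The arterial class was named from its 8 listed markers, so their levels describe the class and are no check of its name. The 61 arterial endothelium-like cells at E11.5 and 143 at E10.5 had 1884 and 2338 CPM of Gja4, a connexin of arterial endothelium, against 3.46 and 13.3 CPM in the rest of their libraries. Gja5, another arterial connexin, had 537 and 869 CPM against 0.798 and 4.49 CPM, and the arterial transcription factor gene Sox17 had 462 and 400 CPM against 5.51 and 9.50 CPM. All 8 listed arterial markers were higher in these cells than in the rest of the library at both stages. Their median depth was 15952 UMIs at E11.5 and 12661 at E10.5, with median mitochondrial shares of 5.31% and 5.98%.

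Arterial cells were set against the venous, capillary and sinusoidal cells of the same library (139 cells at E11.5 and 121 at E10.5), which asks how members differ between kinds of endothelium. Dll4 had 135 CPM in arterial and 27.3 CPM in other endothelial-like cells at E11.5, and 156 and 18.3 CPM at E10.5. The log2 ratios were 2.30 (1.97 to 2.65) and 3.09 (2.76 to 3.44). Dll4, the ligand best known from arteries and sprouting vessels, was thus several-fold higher on the arterial side in both libraries, but present in the other kinds too.

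Jag1 had the widest gap. Its arterial and other endothelial levels were 331 and 8.07 CPM at E11.5, and 169 and 12.8 CPM at E10.5. The log2 ratios were 5.36 (4.87 to 5.88) and 3.72 (3.34 to 4.12). For Jag2 the levels were 64.3 and 7.63 CPM at E11.5, and 49.2 and 5.63 CPM at E10.5, with log2 ratios of 3.07 and 3.13. Dll1 did not share this pattern: it had 9.18 CPM in arterial and 11.8 CPM in other endothelial cells at E11.5, and 7.90 and 12.8 CPM at E10.5, and both intervals of its ratio included 0.

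Among the receptors, Notch1 had 254 CPM in arterial and 115 CPM in other endothelial cells at E11.5, and 250 and 77.7 CPM at E10.5, with log2 ratios of 1.15 (0.94 to 1.35) and 1.68 (1.498 to 1.873). Notch4 had 91.8 and 28.6 CPM at E11.5, and 94.8 and 23.1 CPM at E10.5, with log2 ratios of 1.68 and 2.04. Both were found in every kind of endothelium, at a higher level in arteries. Notch3 had 44.4 and 5.02 CPM at E11.5, and 46.1 and 5.83 CPM at E10.5, with log2 ratios of 3.15 and 2.98. Notch2 had 3.83 CPM in arterial cells at E11.5 and 6.58 CPM at E10.5, against 12.1 and 19.9 CPM in erythroid-like cells. Without the highest doublet scores the erythroid-like level was 11.6 CPM at E11.5 and 5.65 CPM at E10.5, so at E10.5 the order of the levels turned.

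Smooth muscle markers moved in part with Notch3. The 9 mural markers summed to 162 CPM in arterial and 52.8 CPM in other endothelial cells at E11.5, and to 398 and 35.5 CPM at E10.5. In mural cells they summed to 14430 CPM at E11.5 and 9040 CPM at E10.5. Kcnj8 was at 0 in arterial cells of both libraries and Cspg4 at E10.5, while Acta2 had 94.1 and 227 CPM. The part of these transcripts in the arterial Notch3 level was not tested.

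In all, 6 of the 8 members (Dll4, Jag1, Jag2, Notch1, Notch3 and Notch4) were at least 2-fold higher in arterial cells in both libraries. This compares with 12.6% of 10439 genes at E11.5 and 18.1% of 10596 genes at E10.5. None of the 8 was at least 2-fold lower, against 8% and 6.65% of genes, and the median log2 ratios of all genes were 0.12 and 0.23. Averaging each cell's own CPM gave 5 members at E11.5.

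**Figure D2:**
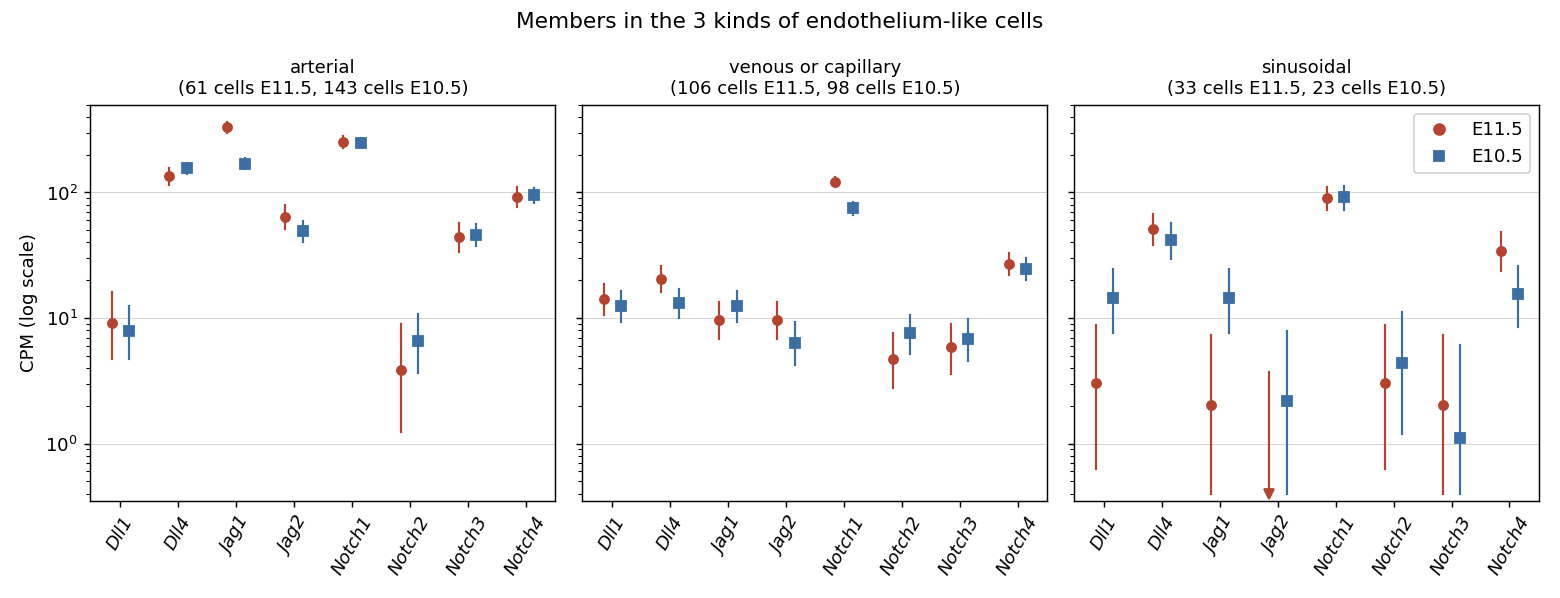
CPM of each member (log axis, 95% intervals for counting error, arrow for 0 UMIs) in arterial, venous or capillary and sinusoidal endothelium-like cells, E11.5 in red beside E10.5 in blue. Jag1 drops most outside arterial cells, Notch1 and Notch4 remain above 15 CPM in all 3 kinds, and Notch2 is low in all.

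Sinusoidal endothelium, which lines the liver's blood channels, had a ligand makeup unlike that of arteries, although it rested on 33 cells at E11.5 and 23 at E10.5. Dll4 was present there at 51.6 and 41.8 CPM, Notch1 at 90.1 and 91.4 CPM and Notch4 at 34.4 and 15.4 CPM. Jag1 had 2.02 and 14.3 CPM, and Jag2 had 0 UMIs at E11.5, which allows up to 3.04 CPM, and 2.20 CPM at E10.5. Venous or capillary cells (106 and 98) had 20.6 and 13.2 CPM of Dll4, 9.73 and 12.5 CPM of Jag1 and 9.73 and 6.37 CPM of Jag2.

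Single cells gave the same picture for arteries. Jag1 was detected in 96.7% of arterial cells at E11.5 and 79.7% at E10.5, Notch1 in 91.8% and 82.5%, Dll4 in 75.4% and 74.8% and Notch4 in 63.9% and 62.2%. In erythroid-like cells, deeper at medians of 27302 and 33395 UMIs, the shares were 1.56% and 5.78% for Jag1, 1.23% and 7.11% for Notch1, 0.447% and 0.889% for Dll4 and 1.45% and 1.78% for Notch4. For Notch2 the arterial shares of 6.56% and 9.09% lay under the erythroid shares of 20.2% and 19.1%, but without the highest doublet scores the erythroid share was 19.3% at E11.5 and 7.03% at E10.5, the second below the arterial one. After thinning each cell to 5000 UMIs, which left out 2 and 7 arterial cells, Jag1 was detected in 76.3% at E11.5 and 49.3% at E10.5 and Dll4 in 37.3% and 51.5%.

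Ligand and receptor were often found in the same arterial cell. At least 1 ligand and 1 receptor had a UMI in 57 of 61 cells at E11.5 (93.4%) and 127 of 143 at E10.5 (88.8%). Dll4 and Notch1 shared 44 and 91 cells, and Dll4 and Jag1 shared 44 and 90. The corresponding shares with any ligand and receptor were 67.9% and 62.2% in venous or capillary cells, 74.7% and 23.3% in mural cells and 0.559% and 4% in erythroid-like cells.

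Between the stages, arterial cells differed in Jag1 and little in the other members. Jag1 had 331 CPM (300 to 363) at E11.5 and 169 CPM (153 to 187) at E10.5, a log2 ratio of 0.97 (0.77 to 1.17). The median arterial cell had 6 Jag1 UMIs at E11.5 and 2 at E10.5, although the highest cells had 32 and 14. At least 8 UMIs were found in 18 of 61 cells (29.5%) at E11.5 and 8 of 143 (5.59%) at E10.5, and none in 2 (3.28%) and 29 (20.3%). The difference narrowed to 0.38 (-0.01 to 0.77) in the 23 and 30 cells with at most 5% mitochondrial UMIs.

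Dll4 had 135 CPM (116 to 156) at E11.5 and 156 CPM (140 to 173) at E10.5, a log2 ratio of -0.21 (-0.48 to 0.05). Notch1 and Notch4 were near equal between stages, with log2 ratios of 0.02 (-0.18 to 0.22) and -0.05. Jag2 was at 0.39 (-0.04 to 0.81) and Notch3 at -0.05. No member reached a 2-fold difference, against 3.01% of 9810 genes that were higher at E11.5 and 3.21% that were lower, around a median of 0.01.

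The arterial cells fell into 3 subclusters that were unevenly shared by the libraries, and Jag1 differed among them. Subcluster 7 (43 cells at E11.5 and 1 at E10.5) was led by the elastic matrix genes Fbln5, Mgp and Eln and had 483 CPM of Jag1 and 122 CPM of Dll4 at E11.5. Subcluster 0 (7 and 118 cells) was led by Gja5, Edn1 and Fn1 and had 199 CPM of Jag1 and 169 CPM of Dll4 at E10.5. Subcluster 8 (11 and 24 cells), led by genes that include Unc5b and Cxcr4, had 116 CPM of Jag1 at E11.5 and 87.2 CPM at E10.5. Within a subcluster, the median cell had 6 Jag1 UMIs at E11.5 and 2 at E10.5 in subcluster 0, and 5 and 1 in subcluster 8, where the median depth was 36714 and 16884 UMIs and the intervals of the CPM overlapped. The parts of subcluster makeup and depth in the stage difference were not tested.

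**Figure D3:**
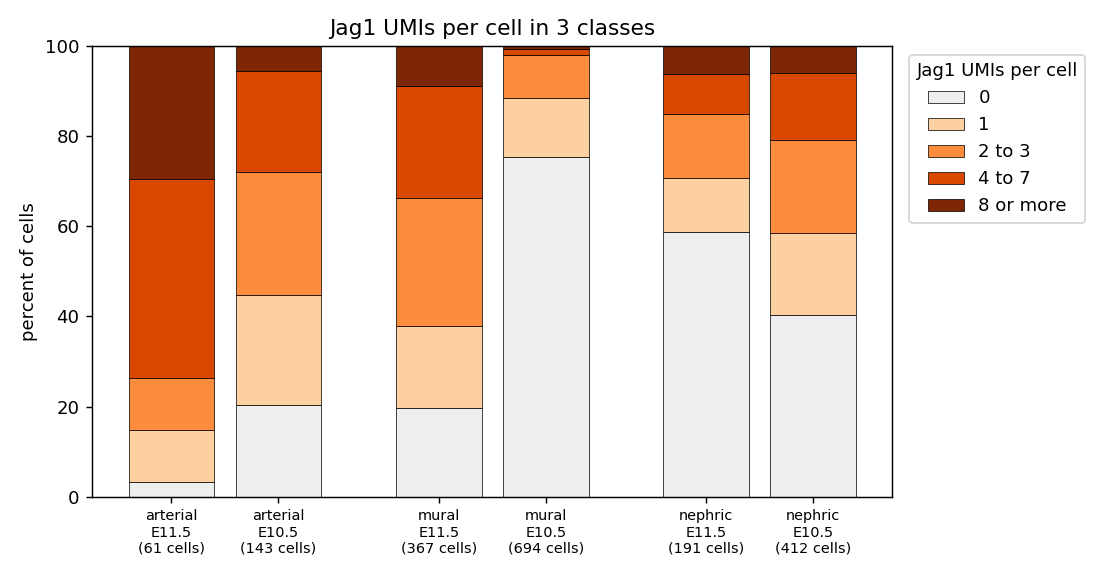
Percent of cells (y axis) by number of Jag1 UMIs per cell (stacked shades from 0 to 8 or more) in arterial, mural and nephric cells, E11.5 left of E10.5 in each class. Cells without Jag1 make up 3.28% and 20.3% of arterial cells, 19.6% and 75.4% of mural cells and 58.6% and 40.3% of nephric cells.

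Over the 3 endothelial kinds together (200 and 264 cells), no member differed 2-fold between stages, against 4.04% of genes higher and 1.91% lower. Jag1 had 79.6 and 60.7 CPM (0.39), Dll4 51.1 and 60.4 CPM (-0.24) and Notch1 146 and 130 CPM (0.16). These 3 directions depended on settings: at clustering resolution 0.5 Jag1 turned to -0.49 and Notch1 to -0.40, and with at most 5% mitochondrial UMIs Dll4 turned to 0.51. Within venous or capillary cells Notch1 and Dll4 were higher at E11.5. These had 121 CPM of Notch1 at E11.5 and 74.7 CPM at E10.5 (log2 ratio 0.70, 0.49 to 0.91), and 20.6 and 13.2 CPM of Dll4 (0.64, 0.12 to 1.17). Neither reached 2-fold, and neither did any other member with 20 UMIs, against 7.59% of genes higher and 2.22% lower. These cells came mostly from 1 subcluster at E11.5 (98 of 106 cells) and from another at E10.5 (89 of 98). After thinning, the Dll4 ratio turned to -0.42.

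Mural cells wrap vessels and are known to respond to Jag1 on endothelium. The smooth muscle or mural-like class, called mural cells here for short, was named from markers such as Acta2 and Tagln. Its cells came from different clusters at each stage, and its E10.5 subclusters held sclerotome or gonadal mesenchyme markers. Whether the E10.5 cells wrap vessels was not tested. Between the stages the class showed a wide difference in Jag1. Jag1 had 196 CPM (185 to 208) in 367 cells at E11.5 and 29.99 CPM (26.8 to 33.4) in 694 cells at E10.5, a log2 ratio of 2.71 (2.53 to 2.89). It was detected in 80.4% of mural cells at E11.5 and 24.6% at E10.5 at similar median depths of 15319 and 15220 UMIs, and in 55.6% and 10.7% after thinning. At least 8 Jag1 UMIs were found in 33 cells at E11.5 and 4 at E10.5.

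Notch3 had 78.9 CPM (71.8 to 86.5) at E11.5 and 36.7 CPM (33.2 to 40.5) at E10.5, a log2 ratio of 1.10 (0.91 to 1.30). Notch1 had 64.2 CPM (57.8 to 71.1) and 25.8 CPM (22.8 to 29.0), a log2 ratio of 1.32 (1.09 to 1.55). Both receptors differed in the same direction as Jag1, without overlap of their intervals. Notch2 was close, at 85.5 and 75.1 CPM (0.19, 0.02 to 0.35). Dll4 had 0 UMIs at E11.5, which allows up to 0.525 CPM at 3 counts, and 1 UMI at E10.5, and Dll1, Jag2 and Notch4 stayed under 6 CPM.

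Of the 5 members with at least 20 UMIs in mural cells, 3 (Jag1, Notch1 and Notch3) were at least 2-fold higher at E11.5 and none lower, against 8.01% and 5.43% of 12363 genes and a median ratio near 0. Target genes of the pathway differed alongside. Hey2 had 74.2 and 17.9 CPM at E11.5 and E10.5, Heyl 162 and 39.7 CPM and Nrarp, which encodes a feedback inhibitor, 99.5 and 29.3 CPM. Hes1 had 107 and 82.3 CPM and Hey1 45.7 and 64.8 CPM. Across the 47 listed pathway genes, 42 had 20 UMIs here, of which 5 were at least 2-fold higher (among them Hey2, Heyl and Nrarp) and 2 lower (Dll3 and Tle1).

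The mural class was made of different clusters at the 2 stages, 357 of 367 cells from cluster 21 at E11.5 and 693 of 694 from cluster 8 at E10.5. The markers of the class differed too, with 383 and 38.5 CPM of Myh11, the smooth muscle myosin, 524 and 147 CPM of Rgs5 and 155 and 60.4 CPM of Pdgfrb, both pericyte genes. Endothelial markers summed to 98.5 and 81.8 CPM over 12 genes. Within E11.5 the subclusters had 217 CPM of Jag1 (196 cells with Eln and Myh11), 182 CPM (104 cycling cells) and 156 CPM (61 cells with Crabp1). Within E10.5, subclusters 0 and 3 (282 and 156 cells, both with the sclerotome markers Pax1, Pax9 and Meox1) had 43.3 and 42.3 CPM. Subcluster 1 (256 cells, with the gonadal mesenchyme markers Wt1, Gata4 and Lhx9) had 3.65 CPM. Each of the 3 main subclusters at E11.5 thus lay above each at E10.5. The makeup of the class and the stage cannot be told apart here.

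**Figure D4:**
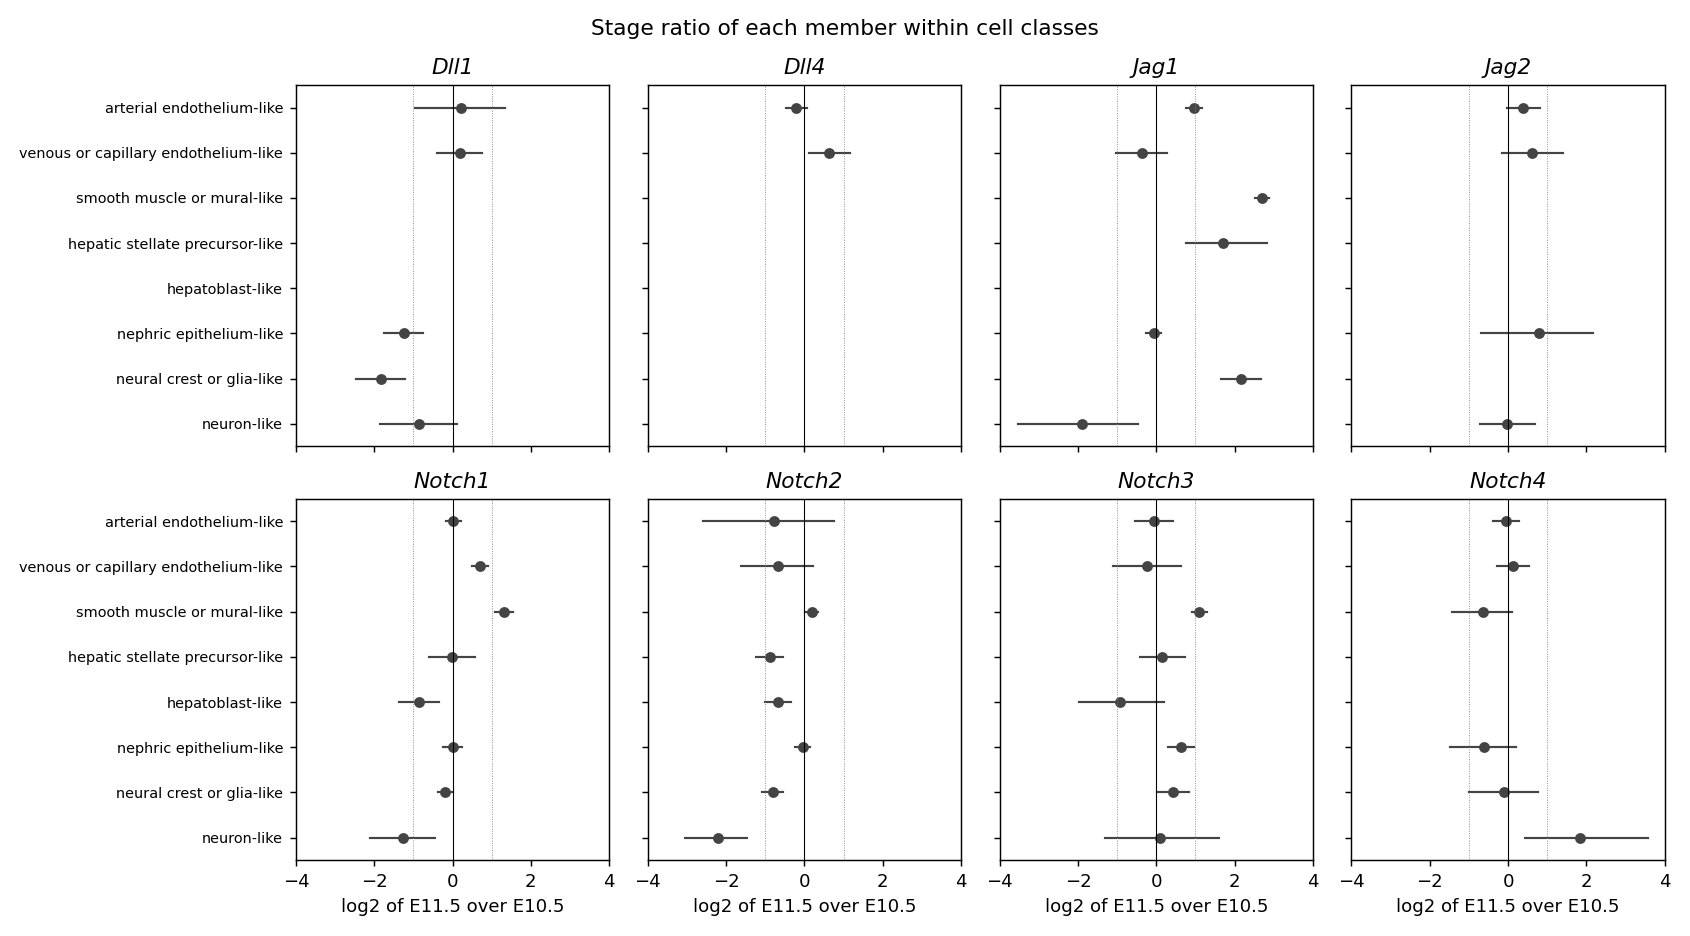
Log2 ratio of E11.5 over E10.5 for each member with at least 20 UMIs (x axis, 95% intervals for counting error, dotted lines at 2-fold) in 8 cell classes. Mural cells, from different clusters at the 2 stages, hold Jag1, Notch1 and Notch3 beyond 2-fold on the E11.5 side. Crest cells, from subclusters unevenly shared by the libraries, hold Jag1 and Dll1 on opposite sides, and no arterial member passes 2-fold.

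Nephric epithelium-like cells, precursors of the kidney tubules, had the main Jag1 and Dll1 store at E10.5, with 33.7% of Jag1 UMIs and 28.9% of Dll1 UMIs of that library. Jag1 had 91.0 CPM at E11.5 and 94.8 CPM at E10.5 in 191 and 412 cells. Dll1, known in kidney precursors for early nephron patterning, had 12.01 CPM (40 UMIs) at E11.5 and 28.2 CPM (262 UMIs) at E10.5, a log2 ratio of -1.23 (-1.75 to -0.75). It was the only member here at least 2-fold lower, against 3.82% of 12523 genes lower and 10.9% higher. The clusters of the class differed between stages: 124 of the 191 cells at E11.5 formed a cluster of their own with Dach2 and Runx2 among its leading genes. The part of this makeup in the Dll1 ratio was not tested. Within the cluster that both libraries shared (67 and 412 cells, a restriction chosen after seeing the data), Dll1 had 18.6 and 28.2 CPM (-0.60, -1.14 to -0.10), Jag1 131 and 94.8 CPM (0.47, 0.27 to 0.67) and Notch1 87.6 and 58.2 CPM (0.59, 0.34 to 0.84).

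At E10.5 the ligands differed within the nephric class. A subcluster of 82 cells with Fgf8, Sfrp2 and Uncx had 83.9 CPM of Dll1, 196 CPM of Jag1 and 86.8 CPM of Notch1. Another of 149 cells with Foxc2, Wt1 and Wnt4 had 114 CPM of Jag1 and 147 CPM of Notch2. The 3 targets Hey1, Heyl and Nrarp were at least 2-fold lower in the class at E11.5. Hey1 had 23.4 and 94.3 CPM, Heyl 6.30 and 13.1 CPM and Nrarp 16.2 and 47.1 CPM, while Hes1 had 149 and 95.3 CPM. These target values cover the whole class, in which 124 of the 191 cells at E11.5 formed a cluster without cells from E10.5. The part of this makeup in the target ratios was not tested.

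Cluster 17 held 438 cells, all from E10.5, with neural tube genes such as Sox2 and Fabp7, but it did not pass the naming rule and stays unnamed. It had the highest level of Dll1, 44.9 CPM (38.9 to 51.5), with 204 UMIs or 22.5% of those in the library, beside 85.8 CPM of Notch1 and 132 CPM of Notch2. Dll1 had a UMI in 13.5% of its cells, at a median depth of 9335 UMIs, and in 0 of 225 erythroid-like cells (median 33395 UMIs), which allows up to 1.33% of cells with a UMI and sets no limit on cells that express the gene. In the neural tube Dll1 is known from cells leaving the progenitor state, whose neighbours stay progenitors through Notch1 and Hes5.

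Most Dll1 UMIs lay in few of these cells. Subcluster 3 (49 cells, led by genes that include Neurog3, Neurod4, Hes6 and Gadd45g, known from newly formed neurons) had 279 CPM, with 110 UMIs or 53.9% of the cluster's total, in 30 cells. A cycling subcluster (29 cells) had 116 CPM, from 52 UMIs in 7 cells. The subcluster with Fabp7 and Hes5 (101 cells), genes of neural progenitors, had 18.1 CPM of Dll1, 51.6 CPM of Jag1 and 140 CPM of Notch1. Hes1, another target, was at 7.62 CPM in subcluster 3, while Hes5 was at 206 CPM there and at 253 CPM in the progenitor subcluster.

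Notch1 was present on both sides: 23 of the 30 cells with Dll1 in subcluster 3 also held Notch1, and 24 held Dll3, a Delta-like protein that does not activate receptors on other cells. The 2 subclusters of more mature neuronal genes (30 and 27 cells) had 29.8 and 12.7 CPM of Dll1 and 11.2 and 22.3 CPM of Notch1. The subclusters with Shh and Foxa2, genes of the floor plate (67, 55 and 34 cells), had 1.80 CPM, 2.50 CPM and 0 UMIs of Dll1, but 318, 175 and 274 CPM of Notch2 and 251, 398 and 427 CPM of Hey1. The subclusters were formed on genes of the same cells, so these contrasts are descriptions.

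**Figure D5:**
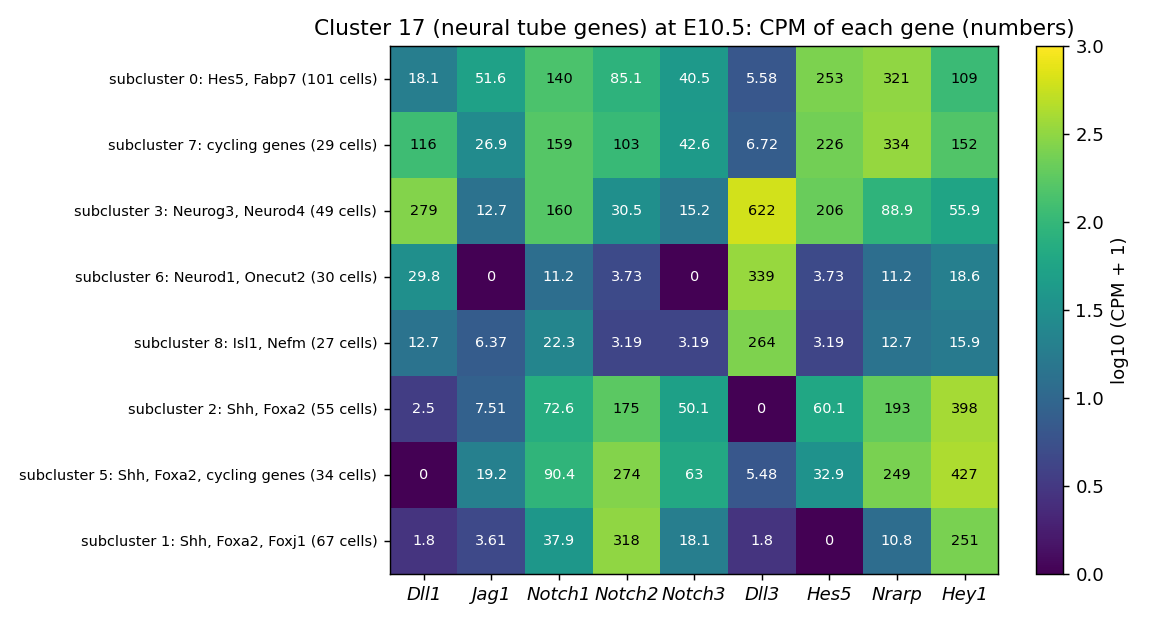
Levels (CPM printed in each cell of the grid, shaded by log10 of CPM + 1) of members and pathway genes in 8 subclusters of cluster 17 at E10.5, with a subcluster of mesenchymal genes (46 cells) left out. Dll1 and Dll3 peak in the subcluster of newly formed neuron genes (279 and 622 CPM), and Notch2 and Hey1 in the floor plate gene subclusters.

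Muscle-like cells, nearly all from E10.5 (27 and 372 cells), had 20.1 and 19.7 CPM of Dll1, which is known to keep muscle precursors from differentiating. At E10.5 Dll1 was higher in the subclusters with Myh3 and Acta1 (41.2 CPM, 40 cells) and with Myod1 and Myog (35.7 CPM, 94 cells) than in that with Dmrt2 (2.93 CPM, 110 cells). The first of these also had 25.6 CPM of Jag2. Sclerotome-like cells (1768 at E10.5) had 76.9 CPM of Notch2, 22.8 CPM of Notch1, 18.8 CPM of Notch3 and 9.94 CPM of Jag1, and only 0.436 CPM of Dll1.

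In neural crest or glia-like cells, Jag1 and Dll1 differed in opposite directions. Jag1 had 24.4 CPM (150 UMIs, 249 cells) at E11.5 and 5.46 CPM (43 UMIs, 329 cells) at E10.5, a log2 ratio of 2.16 (1.67 to 2.69). Dll1 had 4.56 and 16.1 CPM, a log2 ratio of -1.82 (-2.47 to -1.22). These were the 2 members past 2-fold, against 6.19% of genes higher and 3.57% lower. Notch1 was at 60.5 and 68.6 CPM (-0.18) and Notch2 at 27.2 and 47.6 CPM (-0.81). The 9 neuron markers summed to 901 CPM at E11.5 and 1665 CPM at E10.5 in these cells, and their part in the Dll1 difference was not tested. Jag1 reached 28.3 CPM in an E11.5 subcluster of 135 cells with the crest gene Ednrb among its leading genes. Dll1 reached 24.9 CPM in an E10.5 subcluster of 163 cells with Dll3 as a leading gene. The other stage gave 2 cells to the first subcluster and 0 to the second. Another subcluster (31 cells at E11.5 and 103 at E10.5), with the sclerotome markers Pax1, Pax9 and Meox1, had high doublet scores in 77.6% of its cells. The part of this makeup in the Jag1 and Dll1 ratios was not tested.

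Neuron-like cells had little of most members. Jag2 was level, at 11.54 and 11.73 CPM in 244 and 150 cells, and this class held 17.1% and 10.7% of all Jag2 UMIs. Notch2 had 4.98 and 23.1 CPM (-2.21), Notch1 5.51 and 13.2 CPM (-1.26) and Jag1 1.57 and 5.87 CPM (-1.90), the last from 6 and 16 UMIs. Notch4 had 6.55 and 1.83 CPM (1.84), but it changed sign under other clusterings. In this class 10.8% of genes were at least 2-fold higher and 4.22% lower.

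In the liver, hepatic stellate precursor-like cells, which lie beside the sinusoids, had 28.1 CPM of Jag1 at E11.5 (84 UMIs, 207 cells) and 8.55 CPM at E10.5 (10 UMIs, 102 cells), a log2 ratio of 1.72 (0.77 to 2.83). Jag1 was the only member past 2-fold here, against 5.64% of genes higher and 4.17% lower. Notch2 had 57.2 and 106 CPM (-0.89), and Notch1 31.1 and 31.6 CPM. Hepatoblast-like cells, the precursors of hepatocytes and bile duct cells, had 22.8 and 36.5 CPM of Notch2 (-0.68) and 9.11 and 16.5 CPM of Notch1 (-0.86), and no member passed 2-fold, against 8.62% and 4.27% of genes. In the 79 and 91 hepatoblast cells of the cluster that both libraries shared, Notch2 had 17.1 and 36.4 CPM (-1.09, from 9 and 113 UMIs). Mesothelium-like cells (508, E11.5) had 20.8 CPM of Jag1 and 41.7 CPM of Notch2, but 1.99 CPM of Notch1.

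Blood cells had mainly receptors. Granulocyte or monocyte progenitor-like cells (51, E11.5) had 37.4 CPM of Notch1 and 33.2 CPM of Notch2, and macrophage-like cells (102 and 26) had 22.1 and 18.2 CPM of Notch1 and 24.8 and 31.0 CPM of Notch2. Megakaryocyte-like cells (114, E11.5) had 0 UMIs of Notch1, which allows up to 1.21 CPM, and 3.22 CPM of Notch2. A blood subcluster of 8 and 15 cells held haemogenic markers such as Gfi1 and Myb and passed the rule for the name haemogenic or cluster-like. It was led by endothelial genes (Ramp2, Ecscr and Plvap), and the name is not relied on here. High doublet scores were found in 65.2% of its cells, and Dll4 had 31.2 and 19.3 CPM and Notch1 70.1 and 37.0 CPM there.

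Erythroid-like cells (895 and 225), which served as the background class and came from different clusters at each stage, had 12.1 and 19.9 CPM of Notch2, 0.758 and 7.09 CPM of Jag1 and 0.664 and 6.18 CPM of Notch1. Against a share of 15% of genes at least 2-fold lower and 9.19% higher, Jag1 (-3.23), Notch1 (-3.22) and Notch3 (-2.45) were lower at E11.5. Mesenchymal markers moved with them, 9 genes summing to 49.7 CPM at E11.5 and 256 CPM at E10.5. Without the 8% of barcodes with the highest doublet scores, Jag1 was at 0.588 and 1.33 CPM and Notch1 at 0.392 and 0.998 CPM. Cluster 10, an unnamed mesenchyme with Barx1 and Foxf1 (88 and 567 cells), had 35.1 and 55.8 CPM of Notch2 (-0.67) and no member past 2-fold, against 6.77% of genes higher and 6.67% lower.

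The rest of the pathway was followed in the endothelium, using 47 listed genes. Arterial cells had at least 2-fold more of 8 of the 40 genes with 20 UMIs than other endothelial cells at E11.5 and of 16 of 40 at E10.5, with 1 lower in each (Maml3 and Kat2a), and median log2 ratios of 0.51 and 0.85. Over all genes the shares were 12.6% and 18.1% higher and 8% and 6.65% lower, with medians of 0.12 and 0.23. Among targets, Hey1 had 285 CPM in arterial and 18.5 CPM in other cells at E11.5, and 369 and 16.7 CPM at E10.5. Hey2, an arterial target gene, had 145 and 0.436 CPM at E11.5, and 93.5 and 0.583 CPM at E10.5. Hes5 had 16.8 CPM in arterial cells at E11.5 and 0 UMIs in the others, at least 4.69 on the log2 scale against a floor of 3 counts in the summed cells. Hes1, in contrast, had 78.0 and 69.6 CPM at E11.5, and 59.2 and 46.2 CPM at E10.5.

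Genes that act on ligands and receptors were among them. Lfng, which adds sugars to Notch and shifts its response towards Delta-like ligands, had 17.6 and 6.98 CPM at E11.5, and 14.0 and 3.11 CPM at E10.5. Furin, the protease that matures the receptor, had 62.7 and 21.8 CPM, and 54.0 and 10.1 CPM. Ncstn and Aph1b, subunits of gamma-secretase, were at least 2-fold higher in arterial cells in both libraries. Between stages, 1 of 40 genes was at least 2-fold higher in arterial cells at E11.5 (Aph1b, 23.0 and 10.1 CPM) and none lower. In venous or capillary cells 4 of 37 were higher (Mib2, Lfng, Furin and Maml3) and none lower. The count was 1 of 45 higher and 5 lower in nephric cells, 0 and 4 of 43 in crest cells and 0 and 4 of 37 in stellate cells. Over all genes, the shares higher and lower were 3.01% and 3.21% in arterial, 7.59% and 2.22% in venous or capillary, 10.9% and 3.82% in nephric, 6.19% and 3.57% in crest and 5.64% and 4.17% in stellate cells, to be read beside these small counts. Dll3 was among those lower at E11.5 in nephric, crest, neuron-like and mural cells. The nephric, crest and mural classes differed in makeup between the stages, and the part of this in these counts was not tested.

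Levels of members were compared across the 46 sums as log2(CPM + 10), which share libraries and depth, so the correlations are descriptions. Dll4 and Notch4 had a Pearson r of 0.93, Dll4 and Jag2 0.90 and Jag2 and Notch4 0.88. These r values rest on few high sums, since Dll4 and Notch4 reached 20 CPM in 6 sums each and Jag2 in 2. Median levels over the 46 sums were 0.211 CPM for Dll4, 0.725 CPM for Jag2 and 3.67 CPM for Notch4, all under the added 10. Jag1 went with Notch3 and with Notch1 (0.69 each), and Notch2 ran against Jag2 (-0.54) and Dll4 (-0.48). Of 7953 genes, those most like Dll4 were Gja4 (0.98), which is also a marker used to name the arterial class, Zfp69 (0.98) and Cd40 (0.97). For Notch4 they were Clec1a (0.94), Nos3 and Edn1 (0.93), for Jag2 Pi16 (0.93), Hid1 (0.92) and Sost (0.91), and for Jag1 Prdm16 (0.80), Col4a2 and Fstl1 (0.77 each). Notch3 was nearest to Fbn2 and Plekhg2 (0.89 each), Notch2 to Fzd7 (0.85), Notch1 to Ptprm (0.78) and Dll1 to Kbtbd11 (0.72), Btbd17 (0.71) and Irx3 (0.69).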

How the data were processed

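Single cells of dissected C57BL/6 embryos were measured with the 10x Chromium 3′ assay, per the labels' protocols. The submitters' processing notes name Cell Ranger 5.0.0 and the builds mm10 and GRCm38. The authors deposited raw UMI counts per gene and barcode for each library. These files had been cut at 500 UMIs per barcode, the lowest total found. Strand use in counting was not given in the sources used here.

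From the deposited counts, barcodes were kept with at least 1000 UMIs, 500 genes and at most 10% mitochondrial UMIs. Cells were clustered (2000 variable genes per library, 40 principal components, 15 neighbours, Leiden at resolution 1) with leidenalg 0.10.2 and python-igraph 0.11.9 under Python 3.11.15. Clusters were named where at least 3 markers of 1 of 26 lists had 20 CPM and were at least 3-fold above the mean of the other clusters. Both sides had 20 CPM added. Vascular and blood subclusters were compared with the other subclusters of their family, at 1.5-fold. A cluster's name was dropped where another list held more of its 10 leading genes, or where a shallow cluster had no marker among them. The members and lists were chosen with earlier results of these data known, and the naming thresholds were set after seeing the clusters. Doublets were kept, and leaving out the 8% of barcodes with the highest doublet score per library was an alternative.

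UMI counts were summed per class and library. CPM was computed from the deposited counts after haemoglobin and mitochondrial genes had been left out of the total. Ratios are of these CPM values, E11.5 over E10.5 or arterial over other endothelial cells, and rest on the deposited counts. Intervals are 95%: exact Poisson for CPM, Clopper-Pearson for shares and conditional binomial for ratios (scipy 1.17.1). They cover counting error only. The check on simulated data drew independent Poisson counts, which the intervals assume, so it does not cover UMIs clumped in few cells. A count of 0 is read as up to 3 counts for folds. With 1 library per stage no p-value was computed. Genes were counted as called at a 2-fold ratio with at least 20 UMIs in both groups together. Named genes are the 8 members, listed pathway genes past 2-fold with the targets, class markers, and for each member the 3 genes most correlated with it among those reaching 50 CPM. Alternatives were other filters, resolutions, scalings, thinning to 5000 UMIs and doublet removal. A protein sequence table was not used here.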

Additional observations from a re-analysis of the deposited data

Results flagged for a closer look

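For 3 members the stage ratio ran in opposite directions in different cell classes, past 2-fold on each side. The differences between the classes were not tested, since each stage has 1 library. The mural and erythroid-like classes came from different clusters at each stage, and the crest subclusters were unevenly shared by the libraries.

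Jag1 was higher at E11.5 in smooth muscle or mural-like cells (log2 ratio 2.71, from 1121 UMIs at E11.5 and 326 at E10.5), in neural crest or glia-like cells (2.16, from 150 and 43 UMIs) and in hepatic stellate precursor-like cells (1.72, from 84 and 10 UMIs). It was lower at E11.5 in erythroid-like cells (-3.23, from 16 and 31 UMIs) and in neuron-like cells (-1.90, from 6 and 16 UMIs).

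Notch1 was higher at E11.5 in mural cells (1.32, from 367 and 280 UMIs) and lower in neuron-like cells (-1.26, from 21 and 36 UMIs) and erythroid-like cells (-3.22, from 14 and 27 UMIs). Notch3 was higher in mural cells (1.10, from 451 and 399 UMIs) and lower in erythroid-like cells (-2.45, from 23 and 26 UMIs). The lower side thus rested on few UMIs in each case. In erythroid-like cells without the highest 8% of doublet scores, Notch3 was at 0.736 CPM at E11.5 and 0.665 CPM at E10.5. Jag1 (0.588 and 1.33 CPM, from 12 and 4 UMIs) and Notch1 (0.392 and 0.998 CPM, from 8 and 3 UMIs) were still more than 2-fold lower at E11.5. These UMIs were too few for a call, which needs at least 20 in both groups together.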

How the results depend on the processing

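No paired analysis was possible because each stage is 1 library. Of 1780 recomputed values of 282 results, 1481 lay within the interval of the main value or, for counts of members, near the main count. A further 288 moved, and 11 changed sign where the main interval excluded 0. Changes of sign where the main interval included 0 were not counted as such. Of the 80 shares recomputed after thinning to 5000 UMIs, 70 moved. The count of 6 members at least 2-fold higher in arterial cells held under every alternative at E10.5, and at E11.5 under all but averaging cells' CPM (5). When the median ratio of all genes was set to 0, no stage ratio within a class changed sign if its main interval excluded 0.

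With at most 5% mitochondrial UMIs, Jag2 over all cells turned to 0.013 and Dll4 over the 3 endothelial kinds to 0.51. In arterial cells this filter gave 108 CPM of Dll4 at E10.5 (30 cells) and a Jag1 stage ratio of 0.38. Thinning gave -0.42 for Dll4 in venous or capillary cells, -0.15 for Notch1 over the 3 kinds, 111 CPM of Dll4 in arterial cells at E11.5, and Jag1 stage ratios of 1.17 in arterial and 2.97 in mural cells. Averaging each cell's CPM gave 1.29 for arterial Jag1 and -0.054 for Notch1 over the 3 kinds. Resolution 0.5 gave -0.49 for Jag1 and -0.40 for Notch1 over the 3 kinds. Resolution 2 gave 2.16 for mural Jag1 and -0.56 for Notch4 in neuron-like cells. Keeping the members in the clustering gave -0.60 for that Notch4 ratio. Without the highest doublet scores, erythroid-like ratios turned to 1.03 for Notch2 and 0.15 for Notch3. The causes were not tested.

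Sums without a UMI were most frequent for the members of low level: Dll1 had none in 14, Dll4 in 13 and Jag2 in 6 of the 46 sums. The part of depth in this was not tested. The ratio of arterial Notch2 (5 UMIs at E11.5 and 15 at E10.5) had an interval of -2.60 to 0.75, so a 2-fold difference was not detectable at this depth.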
